A study of Mus musculus with 5 samples.

Results

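Integrin and laminin chain genes were followed across hepatic progenitor cells, induced hepatic progenitor cells and the neural progenitor cells from which the induced cells were made. Laminins are cross-shaped trimers of an alpha, a beta and a gamma chain that polymerise into the basement membrane, the sheet of matrix under epithelia and around vessels and glia. Integrins are heterodimers of an alpha and a beta chain in the cell membrane. They bind laminins, collagens, fibronectin, vitronectin and other ligands outside the cell and connect them to the cytoskeleton inside it. In the fetal liver, hepatic progenitor cells meet laminin where bile ducts form, and the choice of integrin chain differs widely between epithelial, mesenchymal, neural and blood cells. Members were all array probes whose gene name is an integrin alpha or beta chain or a laminin alpha, beta or gamma chain, and genes of integrin-binding proteins were left out. The choice used names only. It gave 80 of 41174 probes, for 37 genes: 26 integrin chains and 11 laminin chains. A gene was tested when a probe stood well above background, by the scanner's own flag, on all arrays of at least 1 group, and 32 of the 37 genes were tested, among 19303 genes in all. Of those 32, 22 stood well above background on all 5 arrays. The other 5 genes (Itgam, Itgb2l, Itgb6, Lama1 and Lamc3) were not tested.

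The HPC group held 2 cell populations established from mouse fetal liver at stage E13.5: HB1, from strain C57BL6J, and HNG2, from STOCK Tg(Nanog-GFP, Puro)1 Yam, which carries a Nanog reporter transgene. The NPC group was a single array of the neural progenitor line NSBAg2, derived from the embryonic stem cell line BAg73C2, in which the selection gene beta-geo sits in the Afp locus. The iHPC group was made from NSBAg2 with pMXs retroviruses that carried no drug marker, and its arrays, 9F and 10F, differ in the number of transcription factors given (9 or 10). G418 was added 3 weeks after infection and kept for 1 week, so cells that transcribed Afp were selected, and the Afp level is no independent readout in iHPC. Both iHPC arrays came from the same parental line, and nothing in the sources says that they were separate experiments repeated. With 1 array per population, a p-value reflects only how far these few arrays spread, which may be technical. Embryonic stem cell data were not used here.

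Levels are log2 signals relative to the array's 75th percentile: a level of 0 is the 75th percentile of that array, and a level of -1 is below it by 1 log2 step. A level is compared across arrays for the same probe, never between genes. Differences are in log2 with their standard errors (SE), from limma fitted over all 19303 genes and all 5 arrays with 2 residual degrees of freedom, and a gene was called at a Benjamini-Hochberg adjusted p below 0.05, two-sided. The hepatoblast list, which includes the albumin, alpha-fetoprotein, keratin and Hnf4a genes, had 11 of 11 genes well above background on each HPC and iHPC array and 6 of 11 on NPC. The neural progenitor list had 9 of 12 on NPC, Sox2 and Pax6 among them and the glial gene Gfap not, 8 and 7 of 12 on the iHPC arrays and 6 and 8 of 12 on the HPC arrays. Its summed signal was 6.84 on NPC, 8.30 and 9.38 on iHPC and 2.01 and 3.49 on HPC, in units of the array's 75th percentile. Sox2 and Pax6 were called lower in iHPC than in NPC. Nes was at 2.66 and 2.87 on iHPC and 1.18 on NPC, and Prom1 at -0.50 and -0.43 on iHPC and -1.85 on NPC, neither called. Against HPC, iHPC was called higher for Sox2 by at least 4.97-fold (adjusted p = 0.0302) and for Pax6 by 1.84 (adjusted p = 0.0361). Slc1a3 was at -1.16 and -0.96 on iHPC, 0.41 on NPC and at background on HPC. It was called higher in iHPC than in HPC by at least 38.0-fold (adjusted p = 0.0156). The part of these neural genes in the integrin and laminin differences was not tested. The NPC array also carried the highest signal of mesenchymal genes: the summed signal of 11 such genes, in units of the array's 75th percentile, was 206 on NPC and 15.7 to 19.2 on the other 4 arrays. The HPC arrays were scanned on days of their own and the iHPC and NPC arrays together on another day, so in every comparison with HPC the scan day and the cells cannot be told apart.

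Of the 32 tested members, 13 were called in at least 1 comparison. Most of the calls set HPC against NPC: 3 members were higher in HPC and 10 lower, or 40.6% of those tested, beside 15.7% of all genes (6.68% higher and 8.98% lower). The 10 include Itgb3, for which no direction is given below, because its other probe gave 1.04. Itgb3 is also among the 6 calls given below for members well above background on all arrays. In iHPC against HPC, 4 members were higher and 1 lower, or 15.6% beside 5.42% of all genes (3.54% higher and 1.88% lower). In iHPC against NPC, 1 member was higher and 3 lower, or 12.5% beside 5.64% of all genes (2.79% higher and 2.85% lower). The median difference of the tested members was -0.81 in HPC against NPC, 0.30 in iHPC against HPC and -0.33 in iHPC against NPC, and the medians of all genes were -0.03, 0.05 and 0.03. These shares include 10 members that entered the test without standing well above background on every array, several of them through the group in which they were high. Among the 22 members well above background on all arrays, 6 were called in HPC against NPC (27.3%, beside 11.9% of all genes that met the same condition), 3 in iHPC against HPC (13.6% beside 3.40%) and none in iHPC against NPC (0 of 22 by limma, with 3 at an unadjusted p below 0.05, beside 3.27%). The comparisons share arrays, so their counts are not independent. Both iHPC arrays lay between the HPC arrays and NPC in 13 of the 32 tested members (40.6%) and in 30.2% of all genes, so this order is common.

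The calls rested on the closeness of 9F and 10F. The median SD of a tested member was 0.0938 over the iHPC arrays and 0.517 over the HPC arrays (all genes: 0.105 and 0.374). Without 9F, or without 10F, limma called 0 genes on the whole array in each comparison. The differences of the 4 members called in iHPC against NPC kept their direction without 9F and without 10F. They were -4.84 and -4.95 for Lama2, -3.25 and -3.29 for Itga10, -4.85 and -4.50 for Itga11, and 2.44 and 2.51 for Itga2. Without HB1 the counts of called members were 17 in iHPC against NPC, 19 in iHPC against HPC and 20 in HPC against NPC, beside 6752, 6988 and 9543 of the 19303 genes. Without HNG2 they were 17, 20 and 25, beside 6752, 6963 and 9760 genes. In each of these fits the residual spread is the gap between 9F and 10F alone. From the HPC and NPC arrays alone, limma called 0 of 19303 genes in HPC against NPC (3889 genes, 15 of them members, at an unadjusted p below 0.05). Without the filter on dim probes, the calls lost included Itga2, Itga10 and Itga11 in iHPC against NPC, Itga8, Itga10 and Itgb7 in iHPC against HPC, and Itgae and Itgb7 in HPC against NPC, with adjusted p of 0.0523 to 0.0737 for those named.

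Promoters were available for 24 of the 37 members in a RefSeq table of assembly GRCm38.p6. The window was the 250 bases before the gene's most upstream start. The GC box (GGGCGG on either strand), the site known for factors of the Sp family, lay in 8 of the 24 member promoters (33.3%) and in 33.0% of all 27025 promoters. By level, it lay in 7 of 13 members that stood well above background on all 5 arrays and in 1 of 11 of the other members (Itgam). These sets also differed in base composition, with a median GC content of 62.4% and 54.0% and a median of 12 and 6 CpG. All promoters had medians of 52.0% and 6. The promoters of all genes were not split by level, so no link between GC box and level is drawn. The AP-1 motif TGANTCA was found in 1 member promoter (Itgax; 6.85% of all promoters), the TEAD motif GGAATG in 2 (Itga10 and Itgb1; 12.6%) and the letters TATAAA in 0 of 24 (13.0%), all on both strands. None of the 4 motifs holds another. A match is a description of the letters in this window and no test of binding. The promoters below belong to a pair of genes seen on every array (Lama5 and Itgb5), to a pair that were high on NPC and below the background criterion on both HPC arrays (Lama2 and Itga8), and to Itgb6, seen on a single array; GC boxes are in capitals.
Lama5 (chr2:180225860-180226109, minus strand) has 4 GC boxes, Itgb5 (chr16:33829415-33829664, plus strand) has 3, and Lama2 (chr10:27616943-27617192, minus strand), Itga8 (chr2:12301945-12302194, minus strand) and Itgb6 (chr2:60722604-60722853, minus strand) have none of the 4 motifs.
Lama5: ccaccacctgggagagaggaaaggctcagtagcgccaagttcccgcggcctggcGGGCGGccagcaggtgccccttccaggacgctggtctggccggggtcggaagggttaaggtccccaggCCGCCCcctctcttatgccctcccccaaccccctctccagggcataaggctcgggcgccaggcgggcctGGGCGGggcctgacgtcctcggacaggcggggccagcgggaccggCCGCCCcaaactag
Itgb5: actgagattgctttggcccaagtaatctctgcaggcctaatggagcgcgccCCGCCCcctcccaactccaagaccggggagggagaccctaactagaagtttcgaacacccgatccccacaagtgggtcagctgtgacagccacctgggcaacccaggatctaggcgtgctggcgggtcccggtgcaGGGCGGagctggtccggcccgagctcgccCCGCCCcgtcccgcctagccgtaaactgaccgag
Lama2: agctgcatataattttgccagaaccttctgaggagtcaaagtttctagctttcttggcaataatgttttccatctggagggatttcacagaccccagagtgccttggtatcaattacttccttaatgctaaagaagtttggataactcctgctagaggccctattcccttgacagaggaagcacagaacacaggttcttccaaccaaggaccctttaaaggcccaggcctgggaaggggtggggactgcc
Itga8: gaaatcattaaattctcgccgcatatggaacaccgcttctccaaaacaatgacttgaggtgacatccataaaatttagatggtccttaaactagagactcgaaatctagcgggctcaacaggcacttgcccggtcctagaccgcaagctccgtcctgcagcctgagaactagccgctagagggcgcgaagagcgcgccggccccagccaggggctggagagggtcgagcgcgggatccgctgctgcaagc
Itgb6: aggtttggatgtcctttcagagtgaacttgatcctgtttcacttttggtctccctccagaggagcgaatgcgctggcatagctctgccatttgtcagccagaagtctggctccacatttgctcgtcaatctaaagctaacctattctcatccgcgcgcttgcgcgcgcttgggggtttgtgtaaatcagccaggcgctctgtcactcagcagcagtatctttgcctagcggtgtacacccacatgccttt

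Among laminin alpha chains, Lama5 was well above background on every array and Lama2 on NPC alone. Lama5, the alpha chain of laminins 511 and 521 of adult and fetal epithelia, had levels of 4.37 in HB1, 4.22 in HNG2, 4.12 in both 9F and 10F, and 3.48 in NPC. All 4 hepatic arrays lay above NPC, by 0.81 ± 0.23 for HPC (SE, adjusted p = 0.102) and 0.64 ± 0.23 for iHPC (adjusted p = 0.219), and neither difference was called. Lama2, the alpha chain of the laminins of muscle and peripheral nerve, reached -2.25 in NPC and lay at -8.01 in HB1, -8.61 in HNG2, -7.20 in 9F and -7.09 in 10F, none of the last 4 well above background. NPC and the other arrays did not overlap. Because the hepatic values are at background, only bounds can be given, for the main background treatment. Lama2 was at least 9.07-fold lower in iHPC than in NPC (adjusted p = 0.0284) and at least 16.7-fold lower in HPC than in NPC (adjusted p = 0.0112). With normexp background correction the log2 differences were -1.53 and -2.16, smaller than these bounds though still called. Lama2 entered the test through NPC alone. A lower level in the other groups was thus partly set by the filter, and the p-values are no independent support. In a culture, fewer cells that hold an RNA and less of that RNA per cell give the same array value and cannot be told apart.

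Lama1, the alpha chain of laminin 111 and the chain of the earliest embryonic basement membranes, was not well above background on any array, with levels of -7.96 in HB1, -8.46 in HNG2, -7.53 in 9F, -7.07 in 10F and -7.36 in NPC. No group stood apart. Lama4, the alpha chain of vascular and mesenchymal laminins, ranged from -6.76 (HB1, at background) to -4.30 (9F) and was well above background on 3 arrays: HNG2, 9F and 10F. Its difference between iHPC and HPC was 2.05 ± 0.30 and was not called (adjusted p = 0.0556). These Lama4 values come from 1 of 4 probes, and the others were at background on all 5 arrays. Lama3, the alpha chain of the anchoring laminin 332, ranged only from -4.82 to -4.37 over the arrays by the probe with the highest mean. A second Lama3 probe gave another pattern, from -7.78 in HB1, at background, through -6.19 in HNG2, -3.95 in 9F and -4.26 in 10F to -2.53 in NPC.

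**Figure D1:**
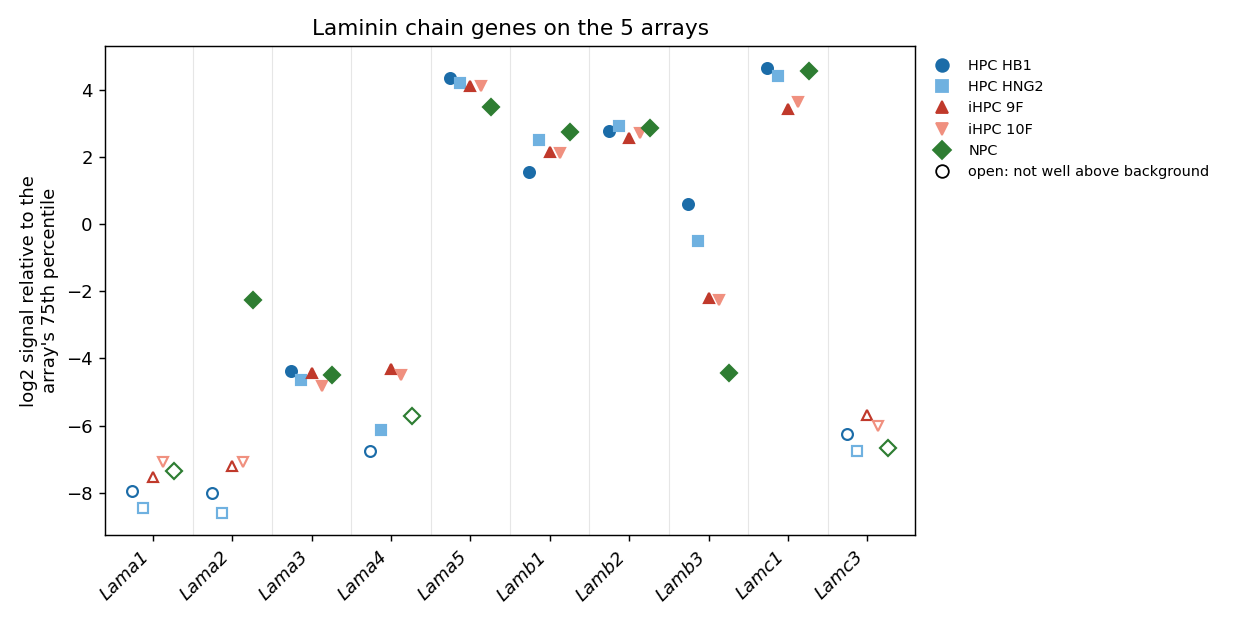
Level of laminin chain genes (log2 signal relative to the array's 75th percentile, vertical axis) on the 5 arrays, by the probe with the highest mean; filled symbols are well above background and open symbols are not. Lama2 is filled on NPC alone at -2.25, Lamb3 steps down from HPC through iHPC to NPC at -4.42, and Lama1 and Lamc3 are open on all arrays.

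Of the beta chains, Lamb3 differed most. Lamb3, the beta chain of laminin 332, had levels of 0.61 in HB1, -0.49 in HNG2, -2.21 in 9F, -2.26 in 10F and -4.42 in NPC. The HPC arrays were highest, the iHPC arrays in between and NPC lowest, without overlap. HPC exceeded NPC by 4.48 ± 0.55 (adjusted p = 0.0247). The step from NPC to iHPC was 2.19 ± 0.55 (adjusted p = 0.127) and that from HPC to iHPC -2.29 ± 0.45 (adjusted p = 0.0822), and neither of these was called. Lamb1, the beta chain shared by laminins 111, 211, 411 and 511, was at 1.55 in HB1, 2.50 in HNG2, 2.14 in 9F, 2.11 in 10F and 2.74 in NPC. The iHPC values lay between those of the HPC arrays, and no Lamb1 difference was called (adjusted p of 0.358 or above). Lamb2, the beta chain of laminins 121, 221, 421 and 521, kept within 2.55 to 2.93 on all 5 arrays, and its HPC and NPC levels differed by less than the SE of 0.25.

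Lamc1, the gamma chain of most laminins, was at 4.65 in HB1, 4.42 in HNG2, 3.43 in 9F, 3.65 in 10F and 4.57 in NPC. Both iHPC arrays were below the other 3, with a difference of -0.99 ± 0.22 from HPC (adjusted p = 0.0986) and of -1.02 ± 0.27 from NPC (adjusted p = 0.138), and neither difference was called. Lamc3 was not well above background on any array, with levels between -6.75 and -5.69.

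Read as sets of chains that can assemble, laminins 511 and 521 had every chain well above background on all 5 arrays. For laminins 211 and 221 this held on NPC only, for laminins 411 and 421 on HNG2, 9F and 10F, and for laminins 111 and 121 on no array, since Lama1 was at background throughout. The pattern of laminins 411 and 421 rests on 1 of 4 Lama4 probes and on the floor of each array. On that probe NPC, at -5.70, lay above HNG2, at -6.14. The dimmest signal still well above background was -5.59 on NPC and -6.62 on HNG2. Basal epithelial genes that often accompany laminin 332 had 4 of 7 well above background on every array, with a summed signal of 0.213 to 0.494, and the defining gene Trp63 was not well above background on any; Krt5 ran from -4.96 to -3.12.

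Among the laminin-binding integrin chains, Itga7 was low in HPC alone and Itgb4 high in HPC alone. Itga7, the laminin-binding alpha chain best known from muscle, had levels of -3.98 in HB1, -4.51 in HNG2, -0.66 in 9F, -0.51 in 10F and -0.99 in NPC. The iHPC arrays lay with NPC and far above both HPC arrays. Itga7 was 3.66 ± 0.27 higher in iHPC than in HPC (adjusted p = 0.0231) and differed by -3.26 ± 0.33 in HPC against NPC (adjusted p = 0.0192), with 0.40 ± 0.33 between iHPC and NPC (adjusted p = 0.549). A second Itga7 probe showed the same order, with -5.83 and -6.36 on the HPC arrays and -0.86 to -0.35 on the other 3.

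Itgb4, the beta chain that pairs with Itga6 in hemidesmosomes, was at 3.27 in HB1, 4.42 in HNG2, 0.96 in 9F, 1.15 in 10F and 1.50 in NPC. Both HPC arrays lay above the other 3, and iHPC lay with NPC. With the HPC arrays themselves 1.15 apart, the differences were not called: -2.79 ± 0.47 in iHPC against HPC (adjusted p = 0.0662) and 2.35 ± 0.57 in HPC against NPC (adjusted p = 0.0774). A second Itgb4 probe showed the same order, and the dimmest of its 3 probes gave -0.05 for HPC against NPC. Itga6, its alpha partner and a partner of Itgb1, had levels of 3.46 in HB1, 4.23 in HNG2, 3.50 in 9F, 3.39 in 10F and 2.70 in NPC. All hepatic arrays were above NPC, by 1.14 ± 0.42 for HPC (adjusted p = 0.150) and 0.74 ± 0.42 for iHPC (adjusted p = 0.379), without a call. A dimmer Itga6 probe, for the transcript AK045391, separated the groups otherwise, at -0.87 in HB1 and -0.78 in HNG2 and between -3.51 and -3.32 on the other 3 arrays.

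Itgb1, the beta chain shared by most laminin, collagen and fibronectin receptors, was at 1.47 in HB1, 1.71 in HNG2, 2.30 in 9F, 2.21 in 10F and 2.46 in NPC. The HPC arrays were lowest, with 0.67 ± 0.21 for iHPC against HPC (adjusted p = 0.155) and -0.88 ± 0.25 for HPC against NPC (adjusted p = 0.102), and no difference was called. A second Itgb1 probe reversed both signs (-0.38 for iHPC against HPC and 0.12 for HPC against NPC), so no direction is given for Itgb1. Itga3, which pairs with Itgb1 to bind laminins 332 and 511, ranged from 0.44 in NPC to 4.19 in HNG2. Both iHPC values lay between HB1, at 1.98, and HNG2. Its differences from NPC, 2.65 ± 1.03 for HPC and 2.79 ± 1.03 for iHPC, carried large errors and were not called (adjusted p = 0.164 and 0.220).

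**Figure D2:**
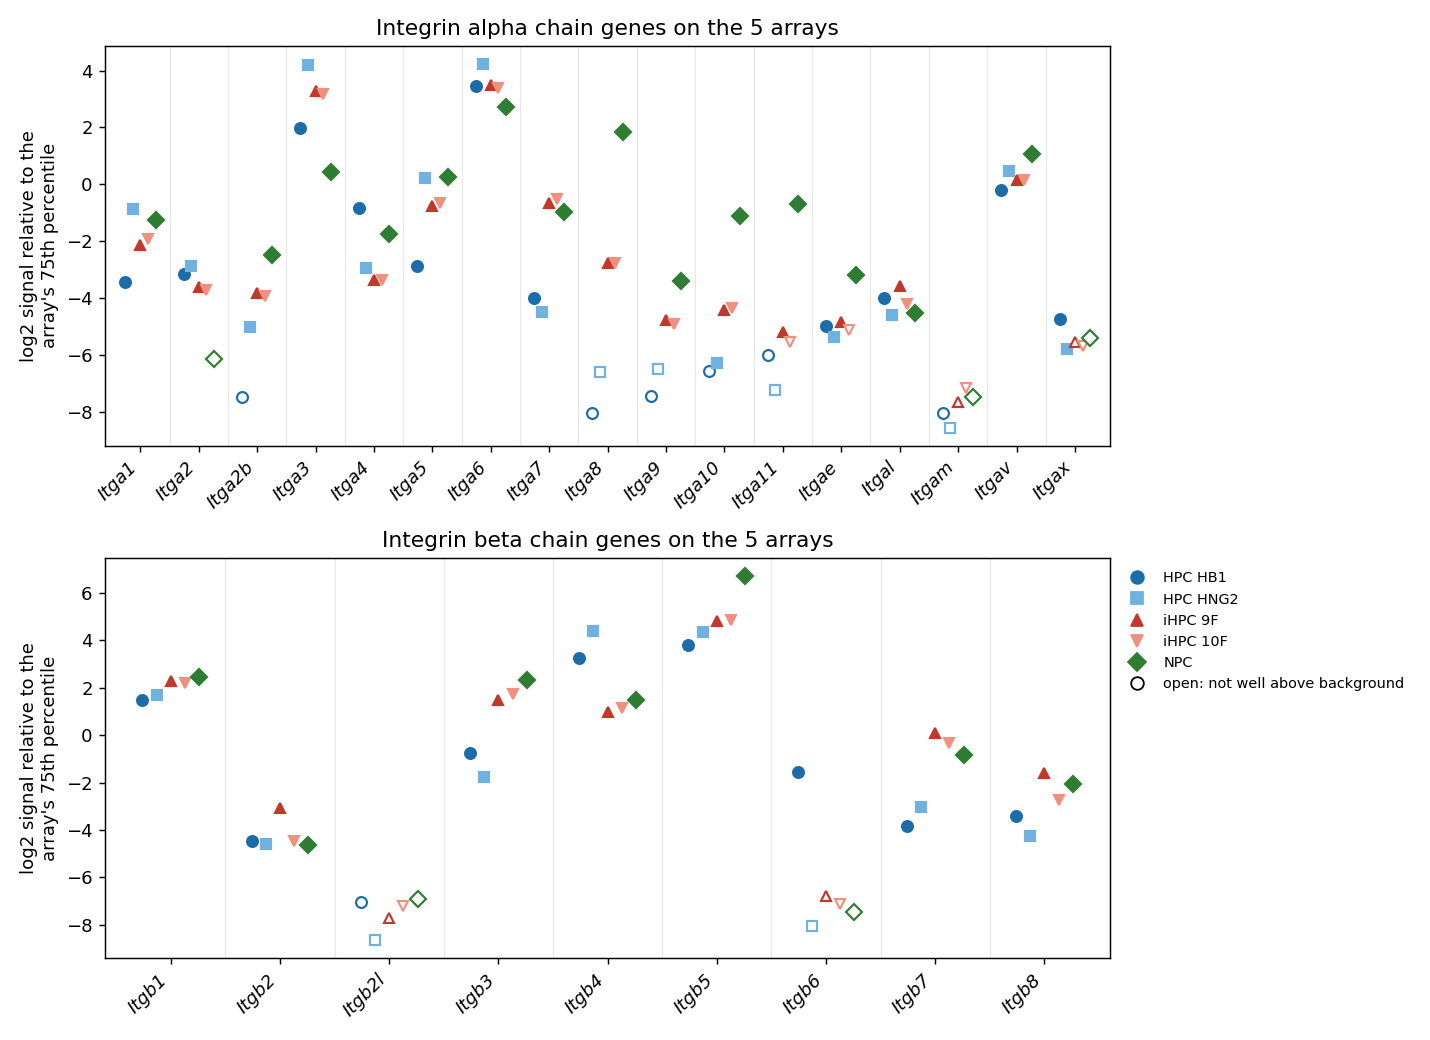
Level of each integrin alpha chain gene (upper panel) and beta chain gene (lower panel) on the 5 arrays, as log2 signal relative to the array's 75th percentile, by the probe with the highest mean; open symbols are not well above background. Itga8 is highest on NPC at 1.85 and open on both HPC arrays, Itga7 and Itgb7 lie low on HPC only, and Itgb6 is filled on HB1 alone at -1.57.

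Among the collagen-binding alpha chains, Itga10 and Itga11 were high on NPC and Itga2 on the hepatic arrays. Itga10, a collagen receptor chain of cartilage, had levels of -6.57 in HB1 (at background), -6.27 in HNG2, -4.41 in 9F, -4.37 in 10F and -1.12 in NPC. The groups did not overlap and iHPC lay in between. Itga10 was lower in iHPC than in NPC (-3.27 ± 0.26, adjusted p = 0.0296), lower in HPC than in NPC (-5.30 ± 0.26, adjusted p = 0.0104) and higher by 2.03 ± 0.22 in iHPC than in HPC (adjusted p = 0.0349). The last call was lost under quantile normalization (adjusted p = 0.0936), median centring (adjusted p = 0.0520), trend and robust moderation (adjusted p = 0.0574) and without the filter on dim probes (adjusted p = 0.0669), and in 6 of 12 alternatives in all. Itga10 did not enter the test through HPC, so a lower level there was partly set by the filter.

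Itga11, the fibrillar collagen receptor chain of mesenchymal cells, reached -0.70 in NPC and was at -5.99 in HB1, -7.25 in HNG2, -5.20 in 9F and -5.55 in 10F. Besides NPC, 9F alone was well above background. Itga11 differed by -4.68 ± 0.64 in iHPC against NPC (adjusted p = 0.0479). It was at least 48.7-fold lower in HPC than in NPC (adjusted p = 0.0204), and the log2 difference with normexp background correction, -3.07, was smaller than this bound. Like Lama2, Itga11 entered the test through NPC alone, so a lower level in the other groups was partly set by the filter. Itga2, the alpha chain of an epithelial and platelet collagen receptor, ran the other way, at -3.15 in HB1, -2.87 in HNG2, -3.63 in 9F, -3.70 in 10F and -6.14 in NPC, where it was at background. All hepatic arrays lay above NPC. Over NPC, Itga2 was at least 3.81-fold higher in iHPC (adjusted p = 0.0340) and at least 5.99-fold higher in HPC (adjusted p = 0.0145). Itga2 did not enter the test through NPC, so a lower level there was partly set by the filter. With normexp background correction the Itga2 differences fell to 0.56 (adjusted p = 0.198) and 0.72 (adjusted p = 0.0718) and neither was called; by the second probe, and with trend and robust moderation, the first was not called (adjusted p = 0.0599 and 0.0535). Itga1, the collagen IV receptor chain, ranged from -3.45 in HB1 to -0.88 in HNG2, with the other groups inside that range and no call.

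Itga10, Itga11, Lama2 and Itga8 were each highest on NPC, the array on which the mesenchymal list was highest too. Of its 11 genes, 10 were well above background on NPC, 8 on each iHPC array, 9 on HNG2 and 4 on HB1. Its summed signal on NPC came mostly from the collagen genes Col1a2 (6.53 on NPC and -3.34 to -1.01 on the others), Col3a1 (5.67 on NPC) and Col1a1 (4.98 on NPC). Other genes of the list were not highest on NPC: Tagln was at 2.05 and 1.61 on iHPC and 0.93 on NPC, and Acta2 at 3.80 and 4.05 on HPC and 3.70 on NPC. The part of this list in the integrin and laminin differences was not tested. In iHPC against NPC, where the arrays share a scan day, 10F and NPC also share a slide. On that slide the differences of 10F from NPC were -3.25 for Itga10, -4.85 for Itga11, -4.84 for Lama2 and 2.44 for Itga2, and those of 9F, on another slide, were -3.29, -4.50, -4.95 and 2.51 in the same order. With scan day as a block, 17 members (5 higher and 12 lower) and 6752 of 19303 genes were called in iHPC against NPC; each HPC array has a scan day of its own, so this fit is the one without HPC, with the gap between 9F and 10F as its only spread.

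Receptors of the RGD motif and of the alpha v type were led by Itga8. Itga8, which pairs with Itgb1 to bind nephronectin and fibronectin in mesenchyme, had levels of -8.04 in HB1, -6.61 in HNG2, -2.76 in 9F, -2.79 in 10F and 1.85 in NPC, the HPC values at background. The 3 groups did not overlap. Itga8 was at least 283-fold lower in HPC than in NPC (adjusted p = 0.0133). It was at least 11.5-fold higher in iHPC than in HPC (adjusted p = 0.0425, or 0.0595 under quantile normalization). With normexp background correction these log2 differences were -5.60 and 1.80, smaller than the bounds. Itga8 entered the test through iHPC and NPC and not through HPC, so a lower level in HPC was partly set by the filter. Between iHPC and NPC the difference was -4.62 ± 0.69 and just missed the threshold (adjusted p = 0.0551); a second probe gave -4.54 (adjusted p = 0.0284). The remaining Itga8 probe, at another place in the gene (chr2:12094670-12099520, mm7), was well above background on 10F and NPC only, at -4.37 and -5.44.

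Itgb5, the beta chain of a vitronectin receptor with Itgav, was at 3.80 in HB1, 4.36 in HNG2, 4.84 in 9F, 4.86 in 10F and 6.70 in NPC. NPC was above all other arrays and HPC lowest. Itgb5 was lower in HPC than in NPC (-2.62 ± 0.34, adjusted p = 0.0267), and the iHPC difference from NPC, -1.86 ± 0.34, was not called (adjusted p = 0.0757). Itgav, the shared alpha chain of these receptors, had levels of -0.21 in HB1, 0.48 in HNG2, 0.15 in 9F, 0.16 in 10F and 1.05 in NPC. NPC was highest, the iHPC values lay between the HPC values, and no difference was called (-0.92 ± 0.39 for HPC against NPC, adjusted p = 0.187, and -0.89 ± 0.39 for iHPC against NPC, adjusted p = 0.274). Itgb8, whose dimer with Itgav activates latent TGF-beta, ranged from -4.24 in HNG2 to -1.59 in 9F without a call.

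Itgb6, another partner of Itgav that binds latent TGF-beta in epithelia, was seen on a single array. By its brightest probe (chr2:60531124-60535739, mm7) it was at -1.57 in HB1, -8.06 in HNG2, -6.80 in 9F, -7.15 in 10F and -7.47 in NPC, the last 4 at background. A second Itgb6 probe gave -1.60 in HB1 and was at background elsewhere. The remaining probe was at background on all 5 arrays. The signal of the brightest probe in HB1 was at least 33.2-fold above that in HNG2 and at least 12.3- to 17.1-fold above those of the iHPC and NPC arrays. Because no group had it on all arrays, Itgb6 was not tested.

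Itgb3, the beta chain of the vitronectin receptor and, with Itga2b, of the platelet fibrinogen receptor, gave opposite answers by probe. The probe with the highest mean, for the transcript AK135584 (chr11:104779399-104779458, mm7), was at -0.77 in HB1, -1.77 in HNG2, 1.50 in 9F, 1.75 in 10F and 2.35 in NPC. On it HPC was lowest, with a difference from NPC of -3.62 ± 0.52 (adjusted p = 0.0316) and of iHPC from HPC of 2.90 ± 0.42 (adjusted p = 0.0554). The other probe, for the RefSeq transcript NM_016780 and at lower coordinates (chr11:104776217-104776287, mm7), was at -1.10 in HB1, -1.49 in HNG2, -2.97 in 9F, -2.98 in 10F and -2.33 in NPC. On it HPC was highest, by 1.04 against NPC (adjusted p = 0.0945), and iHPC differed from HPC by -1.68 (adjusted p = 0.0510). The mean of both probes gave -1.29 for HPC against NPC (adjusted p = 0.108), and no direction is given for the Itgb3 gene as a whole. Itga2b ranged from -7.48 (HB1, at background) to -2.48 (NPC) without a call. Itga5, the fibronectin receptor chain, ranged from -2.89 in HB1 to 0.24 in NPC, with HNG2 at 0.21, and was not called.

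**Figure D3:**
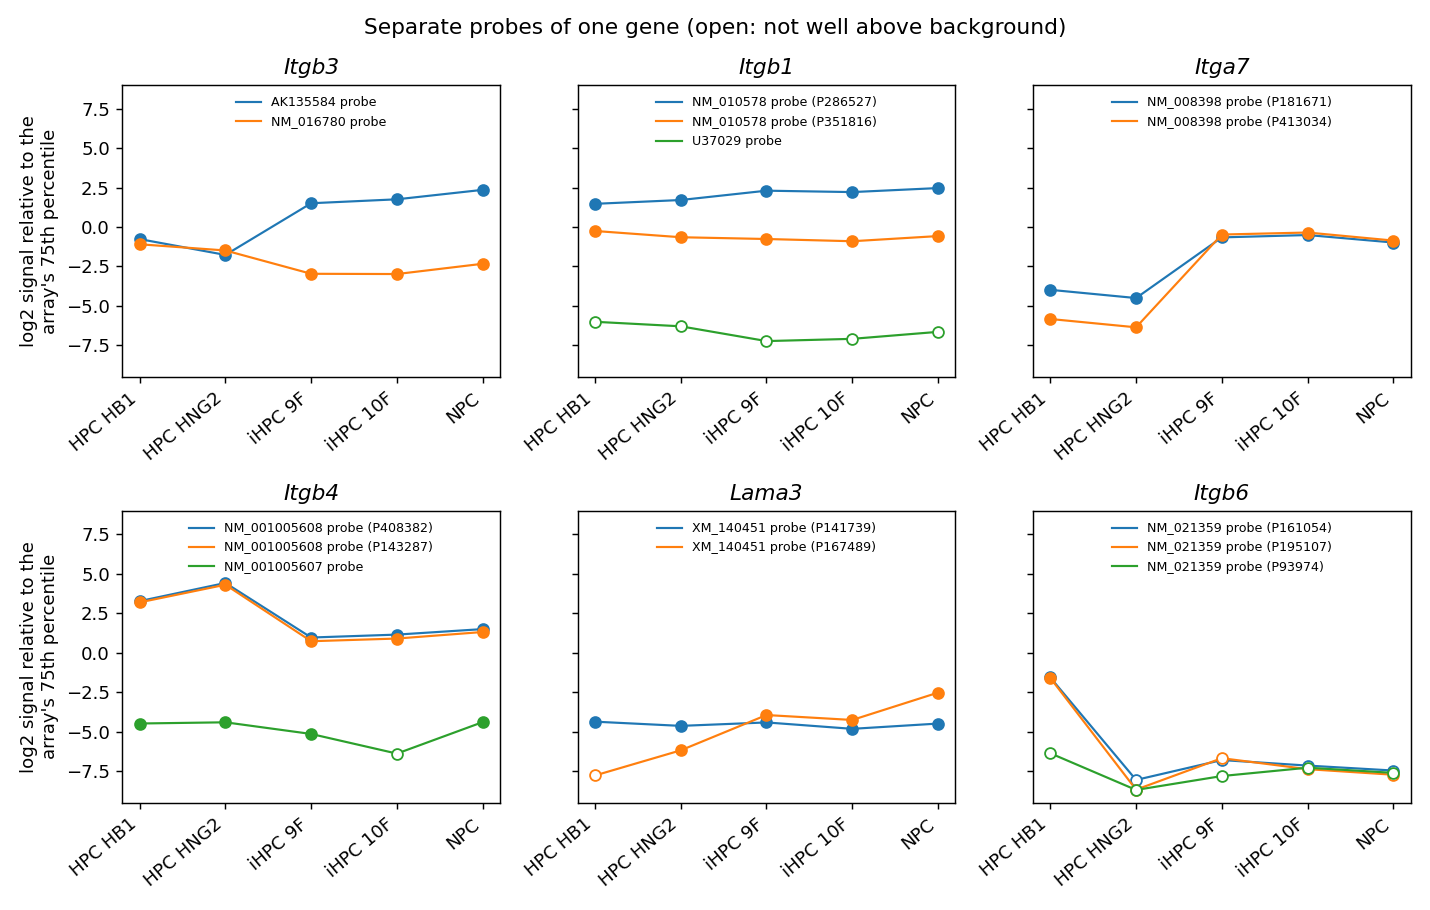
Levels of every probe of 6 genes on the 5 arrays (log2 signal relative to the array's 75th percentile), 1 line per probe, open where not well above background; the lines join arrays for reading only and levels are not compared between probes. The Itgb3 probes move in opposite directions from HPC to the other arrays, the Itga7 probes move together, and 2 of 3 Itgb6 probes are filled on HB1 alone.

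Among the integrin chains best known from leukocytes and their relatives, Itgb7, Itgae and Itga9 were called in at least 1 comparison. Itgb7, the beta chain of gut-homing lymphocyte receptors, had levels of -3.84 in HB1, -3.05 in HNG2, 0.09 in 9F, -0.33 in 10F and -0.83 in NPC. The iHPC arrays were highest and HPC lowest. Itgb7 was 3.32 ± 0.38 higher in iHPC than in HPC (adjusted p = 0.0378) and lower in HPC than in NPC (-2.61 ± 0.47, adjusted p = 0.0458; 0.0565 under quantile normalization and 0.0628 under median centring). Its difference between iHPC and NPC, 0.71 ± 0.47, was not called (adjusted p = 0.447). Itgae, the alpha chain that pairs with Itgb7 to bind E-cadherin, was at -4.98 in HB1, -5.38 in HNG2, -4.86 in 9F, -5.11 in 10F (at background) and -3.18 in NPC. NPC stood above the rest, and HPC differed from NPC by -1.99 ± 0.31 (adjusted p = 0.0365; 0.0630 with trend and robust moderation).

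Itga9, an alpha chain that binds tenascin and osteopontin, had levels of -7.44 in HB1, -6.50 in HNG2, -4.79 in 9F, -4.92 in 10F and -3.39 in NPC, with the HPC values at background. The groups did not overlap and iHPC lay in between. Itga9 was at least 7.21-fold lower in HPC than in NPC (adjusted p = 0.0289; 0.0638 under quantile normalization). It was at least 2.62-fold higher in iHPC than in HPC, which was not called (adjusted p = 0.0782). Like Itga8, Itga9 did not enter the test through HPC, so a lower level there was partly set by the filter. Itga4, the alpha chain of lymphocyte VCAM-1 receptors, ranged from -3.38 in 9F to -0.82 in HB1, with HNG2 at -2.95, and was not called.

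Itgax, a chain of dendritic cells, was at -4.73 in HB1, -5.79 in HNG2, -5.54 in 9F, -5.67 in 10F and -5.42 in NPC, the last 3 at background. It had the largest bound downward in iHPC against HPC, at least 1.08-fold, without a call (adjusted p = 0.642). Itgal ranged from -4.58 to -3.57 and Itgb2, the beta chain of the leukocyte receptors, from -4.63 to -3.06, with 9F highest for both and no call. Itgam, the macrophage chain, and Itgb2l were not well above background on any array. In the leukocyte list, 8 to 10 of 16 genes were well above background per array, with a summed signal of 2.73 to 7.18; Ptprc, which encodes the pan-leukocyte antigen CD45, stood well above background on the iHPC arrays only, at -3.29 and -2.84, and Laptm5, Cd53, Tyrobp and Adgre1 on none. Ptprc was called higher in iHPC than in NPC, by at least 5.78-fold (adjusted p = 0.0300), and than in HPC, by at least 9.49-fold (adjusted p = 0.0193). Ptprc entered the test through iHPC alone, so a lower level in the other groups was partly set by the filter. The p-values of Ptprc are no independent support. Csf1r, the receptor gene of the macrophage lineage, was at 0.25 and 0.46 on iHPC, -2.52 and -4.75 on HPC and at background on NPC, and its differences were not called (adjusted p = 0.0712 for iHPC against NPC and 0.0927 for iHPC against HPC). In the megakaryocyte and platelet list, 2 to 5 of 10 genes were well above background, with a summed signal of 0.0828 to 0.272. Gp9 and Gp1ba were so on no array, and Pf4 and Ppbp on the iHPC arrays only. In iHPC against HPC, 2 of 6 tested genes of this list were called higher and 0 lower (33.3%, beside 5.42% of all genes). These were Pf4, by at least 2.78-fold (adjusted p = 0.0327), and Ppbp, by at least 3.07-fold (adjusted p = 0.0235). Both entered the test through iHPC alone, so a lower level in the other groups was partly set by the filter. In the endothelial list, 2 to 5 of 10 genes were well above background, with a summed signal of 3.99 to 8.67, mostly from Egfl7. Pecam1 and Cdh5 were so on none, while Vwf was at -5.47 and -7.15 (at background) on HPC, -1.26 and -0.62 on iHPC and -3.16 on NPC and was called higher in iHPC than in HPC (5.37, adjusted p = 0.0455). Esam went the other way, well above background on the HPC arrays only, at -4.30 and -4.77. It was called lower in iHPC than in HPC, by at least 1.86-fold (adjusted p = 0.0353). Over NPC it was called higher in HPC, by at least 2.08-fold (adjusted p = 0.0332). Esam entered the test through HPC alone, so a lower level in the other groups was partly set by the filter. Kdr differed by 3.02 between iHPC and HPC and was not called (adjusted p = 0.169). The part of these cell types in the Itgb7, Itgb3 and Lama4 differences was not tested.

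The gap between 9F and 10F passed 1 log2 step in 2 members (Itgb2 and Itgb8), and that between HB1 and HNG2 did so in 11. The share of all genes with such a gap was not counted, so neither number can be read as a trait of the members. The 11 include Itga8 and Itga11, which were not well above background on either HPC array.

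**Figure D4:**
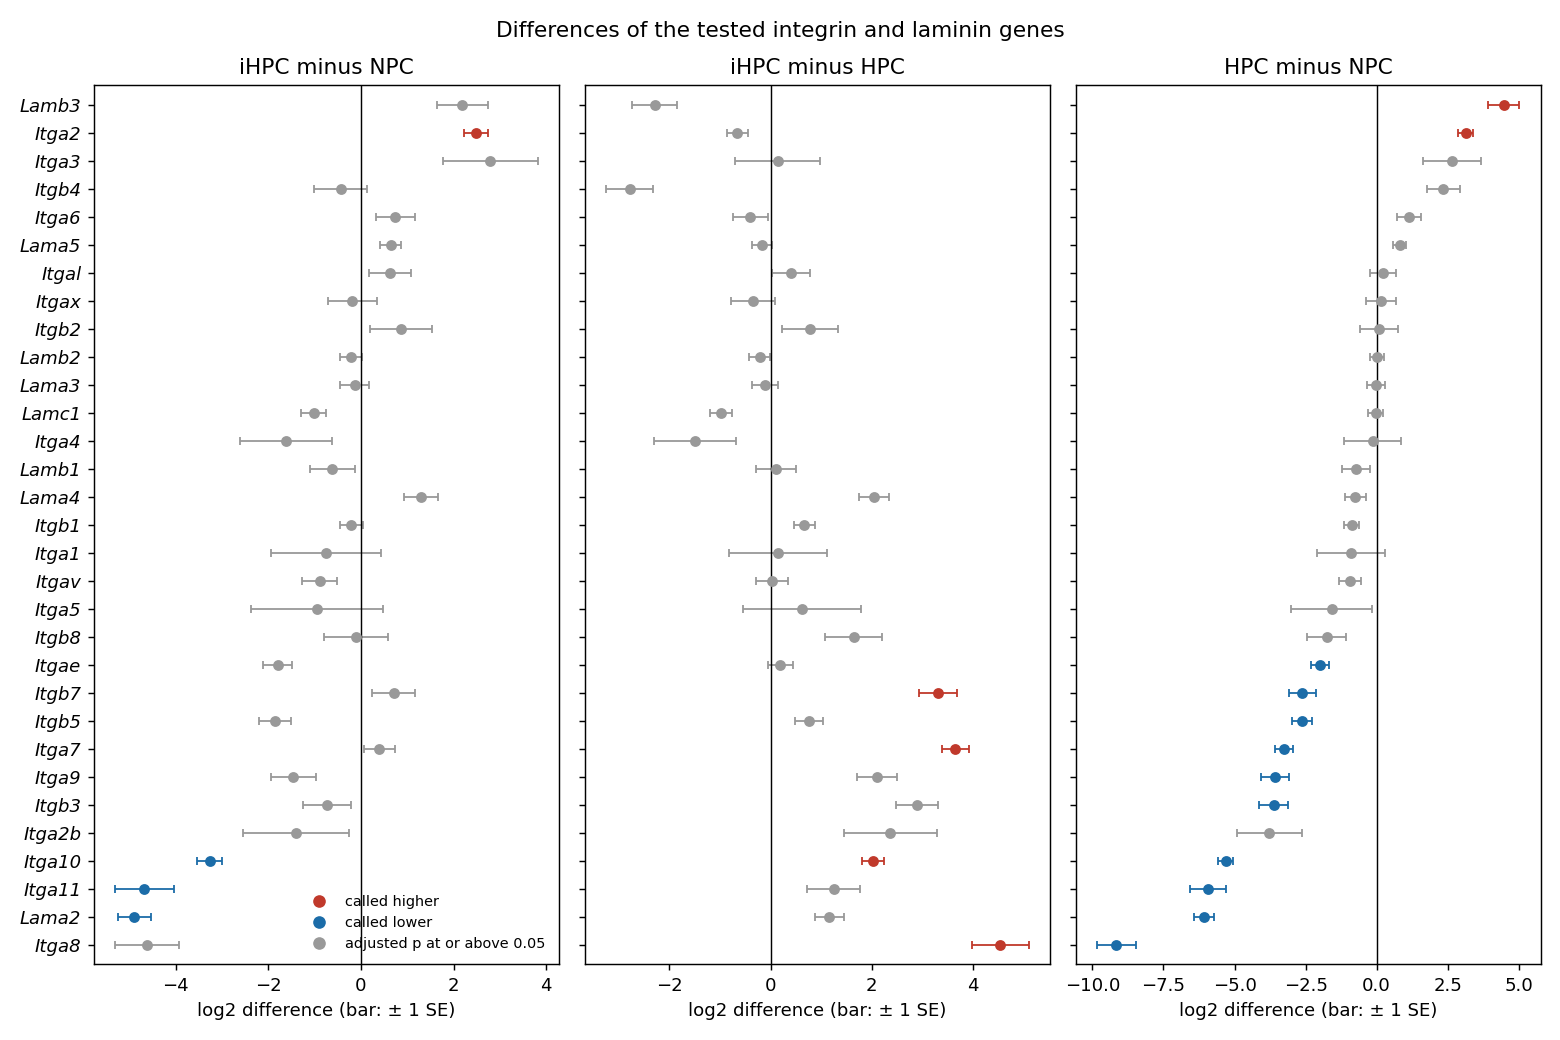
Log2 differences (points) with 1 SE (bars) of tested members in each comparison, ordered by HPC minus NPC; red is called higher, blue called lower and grey not called. The right panel has 10 blue points left of 0, down to -9.17 for Itga8, and the left panel has 3 blue points and 1 red; values of genes at background in a group are fitted values and not bounds, and the signs of Itgb1 and Itgb3 against HPC turn by their second probes.

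Partner genes were taken from a list of 88 matrix, ligand and adaptor genes, of which 78 were tested. In iHPC against NPC, 8 were called higher and 3 lower (14.1%, beside 5.64% of all genes). In iHPC against HPC, 4 were higher and 1 lower (6.41% beside 5.42%), a share near that of all genes. In HPC against NPC, 11 were higher and 5 lower (20.5% beside 15.7%).

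Of 19 tested basement membrane partners, those called were higher on the hepatic side. Tinag, a laminin- and collagen IV-binding protein of tubular basement membranes, was at -2.59 in HB1, -2.79 in HNG2, 0.39 in 9F, 0.08 in 10F and -4.12 in NPC. Its iHPC levels exceeded those of NPC by 4.36 ± 0.28 (SE, adjusted p = 0.0284) and those of HPC by 2.93 ± 0.23 (adjusted p = 0.0235). Its relative Tinagl1 was 3.12 ± 0.25 higher in iHPC and 3.91 ± 0.25 higher in HPC than in NPC (adjusted p = 0.0292 and 0.0121). Ntn4, a netrin that binds laminin gamma chains, exceeded its NPC level at least 2.96-fold in iHPC and at least 2.29-fold in HPC (adjusted p = 0.0284 and 0.0138). Npnt, which encodes nephronectin, the ligand of the Itga8 dimer, was 2.43 ± 0.40 higher in HPC than in NPC (adjusted p = 0.0397).

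Of 25 tested other ligands, the plasma proteins of hepatocytes led the list upward and mesenchymal matrix downward. Fgb, a fibrinogen chain and ligand of Itga2b and Itgav dimers, was at 4.35 in HB1, 1.41 in HNG2, 8.07 in 9F, 8.21 in 10F and at background in NPC. In iHPC against NPC, Fgb, Fgg, Fga, Vtn and Cdh1 were called higher, and Vtn, which encodes vitronectin, by at least 28.0-fold (adjusted p = 0.0442). Postn, a matrix protein bound by Itgav dimers, was at least 96.1-fold lower in iHPC (adjusted p = 0.0267), Emilin1 at least 54.4-fold (adjusted p = 0.0284) and Ccn3 at least 6.99-fold (adjusted p = 0.0343). Postn, Emilin1 and Ccn3 were well above background on NPC alone, so a lower level elsewhere was partly set by the filter. Spp1, which encodes osteopontin, was at 4.83 in HB1, 4.86 in HNG2, 7.89 in 9F, 7.57 in 10F and 8.47 in NPC, with HPC below both other groups (2.89 ± 0.22 for iHPC against HPC, adjusted p = 0.0235, and -3.63 ± 0.27 for HPC against NPC, adjusted p = 0.0133). In iHPC against HPC, the fibrinogen chain genes Fgg and Fga were called higher too, by 7.52 ± 0.72 (adjusted p = 0.0304) and 5.08 ± 0.50 (adjusted p = 0.0320). In HPC against NPC, Fgb, Cdh1, Ccn2, Vtn and Fga were called higher and Thbs2, Postn, Emilin1, Ccn3 and Spp1 lower, and Ccn2, a matricellular ligand, was higher by 6.97 ± 0.83 (adjusted p = 0.0237). Cdh1 and the fibrinogen chains are also genes of hepatic epithelium.

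Among 34 tested adaptors and membrane partners, 0 were called in iHPC against NPC by limma, beside 5.64% of all genes. At an unadjusted p below 0.05 there were 3 of the 34, beside 4713 of all 19303 genes. Pxn, which encodes the focal adhesion protein paxillin, was at 1.60 in HB1, 1.59 in HNG2, 0.11 in 9F, 0.06 in 10F and 0.03 in NPC. HPC stood above both other groups, and Pxn was lower in iHPC than in HPC (-1.51 ± 0.18, adjusted p = 0.0416) and 1.56 ± 0.23 higher in HPC than in NPC (adjusted p = 0.0319). Cd151, the tetraspanin that binds the laminin receptors of Itga3 and Itga6, was 2.03 ± 0.26 higher in HPC than in NPC (adjusted p = 0.0267), and Cd47, a partner of Itgav and Itgb3, 1.54 ± 0.27 higher (adjusted p = 0.0458).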

How the data were processed

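RNA (0.25 µg per sample, per the labels' protocols) from 5 mouse cell populations was hybridised to 1-colour Agilent arrays. The authors deposited intensities of single spots. The scanner software (Feature Extraction 10.7.3.1, protocol GE1_107_Sep09, probes annotated on mm7, per the file headers) subtracted the background, detrended the signal and put surrogates near background, with no normalization between arrays recorded. The deposited flags were used as given per the file headers, and the series table equalled the processed intensity on 100% of spots. Depth does not apply to arrays, and their number limits the precision: 58.9 to 65.6% of non-control spots per array were well above background and 0 were saturated.

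Here log2 of the processed intensity was taken, the array's 75th percentile over unflagged non-control spots subtracted, and spots of 1 probe averaged. Of 41149 probes with a value on all arrays, 22940 were named by RefSeq accession (GRCm38.p6), 6658 by a symbol found there, and 11551 kept the file's name; all 80 member probes matched, 50 by accession, and Lamb1 appears in the files as Lamb1-1. Genes were represented by their tested probe with the highest mean. limma 3.58.1 (R 4.3.3) was fitted with 3 groups; an exact permutation of 2 against 2 arrays could not go below p = 0.333, so none is given. Where a group was not well above background on any array, "at least" is a bound: on each dim array the probe was raised to the dimmest signal still well above background there (unless already higher), and the bright group was divided by the mean of these. A bound given as at least holds for the main background treatment only. The dim group of a bound never carried the gene into the test, so the lower level there was partly set by the filter. With normexp, some log2 differences in HPC against NPC were smaller than their bounds: -2.16 for Lama2, -5.60 for Itga8, -3.07 for Itga11 and -1.48 for Itga9. The fit was checked on simulated data.

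The rule for named genes gave members a mention, all values to members called in a comparison, to those with the largest bound and to Itga6, Itgb1, Itgb4, Itgav, Lama1, Lama5, Lamb1 and Lamc1; of the partner genes, those called were named, up to 6 per comparison and direction. 1 member is counted but not reported here. The members and gene lists were chosen with earlier results of these data known. Alternatives were quantile and median scaling, normexp background (offset 50), other filters, the mean of probes, scan day and slide as blocks, trend and robust moderation, the compared arrays alone and each HPC and iHPC array left out. The second-highest probe was added after seeing the data. Figures were drawn with matplotlib.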

Additional observations from a re-analysis of the deposited data

Results flagged for a closer look

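The Itgb6 signal lay in data outside the comparisons, since the gene was tested in none of them. Its probe A_51_P161054 was at -1.57 and its probe A_52_P195107 at -1.60 on the HB1 array, and both were not well above background on the HNG2, 9F, 10F and NPC arrays. The second probe in HB1 was at least 32.5-fold above HNG2 and at least 12.1- to 16.7-fold above the 9F, 10F and NPC arrays. The third probe, A_52_P93974, was not well above background in HB1 either (-6.37). HB1 was therefore the only array on which both Itgav and Itgb6 stood well above background.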

How the results depend on the processing

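The groups held 1 or 2 arrays, and that number limits every call. No paired analysis was possible because the replicate numbers follow the order of the samples and pair nothing. Of 583 alternative values of the named differences, 427 kept their direction and side of the threshold, 70 newly passed it, 82 no longer passed it and 4 reversed, all 4 by the second-highest probe: Itgb1 (-0.38) and Itgb3 (-1.68) in iHPC against HPC, and Itgb1 (0.12) and Itgb3 (1.04) in HPC against NPC. These values are not all separate checks. In iHPC against NPC, the scan day block, the compared arrays alone and the fits without HB1 or without HNG2 are the same fit, counted each time. In iHPC against HPC, the compared arrays alone repeat the main fit. In the counts that follow, the main counts were 4 members, 11 partner genes and 1089 genes in iHPC against NPC, 5, 5 and 1046 in iHPC against HPC, and 13, 16 and 3024 in HPC against NPC. Without a filter on dim probes, which tests more genes, iHPC against NPC gave 1 member (11 of 37 at an unadjusted p below 0.05, beside 4350 of 28770 genes), 7 partner genes and 305 genes, iHPC against HPC 1 member and 460 genes, and HPC against NPC 10 partner genes and 1643 genes. With only probes well above background on all arrays, iHPC against NPC gave 0 members (5 of 22 at an unadjusted p below 0.05, beside 3649 of 15074 genes), 3 partner genes and 492 genes, iHPC against HPC 3, 3 and 617, and HPC against NPC 6 members and 10 partner genes. With normexp, iHPC against HPC gave 11 members, 9 partner genes and 2129 genes and HPC against NPC 4759 genes; the cause was not tested. With trend and robust moderation, iHPC against HPC gave 9 partner genes. With a scan day block, and likewise with the compared arrays alone, iHPC against NPC gave 17 members, 38 partner genes and 6752 genes; a scan day block was not possible for the other comparisons, and slide as a random block could not be fitted. With only the arrays compared, HPC against NPC gave 0 members, 0 partner genes and 0 genes (15, 21 and 3889 at an unadjusted p below 0.05). Leaving out each array in turn gave 0 to 17 members, 0 to 38 partner genes and 0 to 6752 genes in iHPC against NPC, 0 to 20, 0 to 39 and 0 to 6988 in iHPC against HPC, and 0 to 25, 0 to 52 and 0 to 9760 in HPC against NPC; the zeros are those without 9F or without 10F, which leave 1 residual degree of freedom, all in the HPC pair, and assume that the lone array varies like the others. Median centring moved the median of all genes to 0.29 in HPC against NPC and -0.20 in iHPC against HPC, and normexp to -0.19 and 0.18. With these, the members called higher and lower in HPC against NPC numbered 3 and 9 with median centring and 4 and 12 with normexp, in iHPC against HPC 4 and 2, and 8 and 3, and in iHPC against NPC 0 and 5 with normexp, beside 1 and 3.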

Other observations

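The populations labelled HPC differed from each other in several integrin chains. Itga5 was at -2.89 in HB1 and 0.21 in HNG2, Itga1 at -3.45 and -0.88, Itga3 at 1.98 and 4.19, and Itga4 at -0.82 and -2.95. HNG2 was above HB1 in the first 3 and below it in Itga4. With 1 array of each population and separate scan days, strain, line and scan day cannot be told apart, and no test was made.

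Among the 9 members with several probes well above background on all 5 arrays, probes of a gene gave mixed signs for 1 in iHPC against NPC (Itga6), 4 in iHPC against HPC (Itga1, Itga3, Itgb1 and Itgb3) and 2 in HPC against NPC (Itgb1 and Itgb3).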
